A study of Homo sapiens with 18 samples.

Results

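The clustered protocadherins are 53 protein-coding genes on human chromosome 5 whose symbols start with PCDHA, PCDHB or PCDHG, chosen by symbol from a RefSeq gene table of the build GRCh38.p14 that holds 19974 protein-coding genes on chromosomes 1 to 22 and X. The 15 alpha genes span chr5:140786140-141012347, the 16 beta genes chr5:141051374-141249365 and the 22 gamma genes chr5:141330514-141512975. All 15 alpha genes end at the same base, as do all 22 gamma genes, so the 53 genes have 71 distinct annotated ends among 39667 in the whole table, and each end was counted once. A gene end was said to hold a peak of a list when a peak overlapped the window of 1 kb to either side of it.

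The 18 samples were made by CUT&Tag, in which an antibody on chromatin brings in a transposase that cuts and tags the DNA close by. All cells were A549, a human lung cancer line. An siRNA knockdown of ARID1A (siARID1A), a knockout of YTHDF1 (YTHDF1-KO) and wild-type cells (WT) were each profiled with an antibody to ARID1A, an antibody to YTHDF1 and IgG, with 2 replicates per group. The 12 peak lists of the antibodies to ARID1A and YTHDF1 were used, while the 6 IgG samples were not analysed here. The design also mentions the knockout combined with knockdown, but none of the 18 samples is labelled so. The labels do not say whether the knockout is 1 clone, what siRNA the other groups received or if each replicate was its own culture, so the tests have only the spread of these samples to go by, part of which may be technical.

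Clustered protocadherins are adhesion proteins of the cell surface that pair with identical copies on a touching cell, and they are best known from neurons, where each cell makes its own combination and so tells its branches from those of others. Each variable first exon of the alpha and gamma clusters has its own promoter and is spliced to constant exons shared by the whole cluster, whereas each beta gene is a single exon. A promoter is chosen through loops between CTCF-bound sites at promoters and distant enhancers, held by cohesin, and unused promoters carry DNA methylation. The C-type genes PCDHAC1, PCDHAC2, PCDHGC3, PCDHGC4 and PCDHGC5 lie last in their clusters and are not part of the random choice that the other isoforms undergo in mouse neurons. ARID1A is a subunit of the BAF chromatin remodelling complex, and YTHDF1 binds RNA that carries N6-methyladenosine.

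The promoters below are those of the genes on which the results turn, with a beta gene for contrast. RefSeq's promoter table for GRCh38.p14 had an entry at the annotated start of 46 of the 53 genes, all on the + strand. The 250 bases before the start are shown 5′ to 3′ for PCDHAC2 (chr5:140966226-140966475), PCDHAC1 (chr5:140926049-140926298), PCDHGC3 (chr5:141475716-141475965) and PCDHB1 (chr5:141051124-141051373), the first gene of the beta cluster. Capitals mark CGCT and its reverse complement AGCG, searched on both strands. CGCT is the core of a longer conserved sequence element known from many protocadherin promoters. A match to so short a core does not show that a promoter carries the element.
PCDHAC2: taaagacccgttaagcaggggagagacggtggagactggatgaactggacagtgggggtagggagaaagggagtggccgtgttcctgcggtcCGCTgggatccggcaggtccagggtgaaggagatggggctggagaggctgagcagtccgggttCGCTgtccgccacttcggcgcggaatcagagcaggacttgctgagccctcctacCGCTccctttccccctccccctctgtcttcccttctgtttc
PCDHAC1: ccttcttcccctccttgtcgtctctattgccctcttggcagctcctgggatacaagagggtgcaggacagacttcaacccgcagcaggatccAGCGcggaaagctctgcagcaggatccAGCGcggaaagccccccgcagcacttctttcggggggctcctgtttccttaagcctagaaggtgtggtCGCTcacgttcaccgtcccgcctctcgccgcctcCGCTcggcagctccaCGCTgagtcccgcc
PCDHGC3: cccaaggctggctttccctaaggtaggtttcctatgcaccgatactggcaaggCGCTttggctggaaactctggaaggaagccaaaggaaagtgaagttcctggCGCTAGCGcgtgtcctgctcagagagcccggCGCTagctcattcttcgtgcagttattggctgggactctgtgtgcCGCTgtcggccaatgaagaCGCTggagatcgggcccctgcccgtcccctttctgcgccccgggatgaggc
PCDHB1: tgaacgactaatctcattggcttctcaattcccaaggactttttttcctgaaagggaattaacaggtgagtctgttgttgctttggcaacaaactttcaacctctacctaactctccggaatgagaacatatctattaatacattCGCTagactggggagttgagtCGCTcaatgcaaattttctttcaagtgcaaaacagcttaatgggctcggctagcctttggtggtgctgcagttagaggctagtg

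These stretches held 3 matches in PCDHAC2, 5 in PCDHAC1, 6 in PCDHGC3 and 2 in PCDHB1. Over the full window of 300 bases, from 250 before to 50 after the start, 45 of the 46 promoters (97.8%) held CGCT on either strand, against 70.1% of all 34961 promoters in the table. A CTCF core (CCA, any 2 bases, AG, any 2 bases, GGC), also searched on both strands, was in 1 of 46 (2.17%), at PCDHB9, against 2.41% of all promoters. So exact a search misses sites that differ from this string, so a promoter without a match may still hold a CTCF site. TATAAA was in 6 of 46 (13%), against 11.5% of all promoters. GC content was highest in the 4 C-type genes with an entry, at 66% for PCDHAC1, 63% for PCDHAC2, 60.7% for PCDHGC4 and 59% for PCDHGC3. PCDHGC5 had no entry. The median was 39.7% over the 46 promoters and 58.7% over all promoters.

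Most of the clusters carried no peak in any list. Of the 71 ends, 58 (81.7%) were without a peak in all 12 lists, against 30.5% of all gene ends. Peaks within reach of the beta genes were absent: none of their 32 ends held one. Of the 15 alpha starts, 6 held a peak in at least 1 list, and of the 22 gamma starts 6 did, together with the shared 3′ end of the gamma genes. The shared 3′ end of the alpha genes held none. Peaks of the antibody to ARID1A were at 10 ends (14.1%, against 66.1% of all ends) and peaks of the antibody to YTHDF1 at 6 ends (8.45%, against 54.5% of all ends). The starts of PCDHAC1 and PCDHAC2 were the 2 ends (2.82%, against 35.2% of all ends) with a peak in all 6 anti-ARID1A lists.

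**Figure D1:**
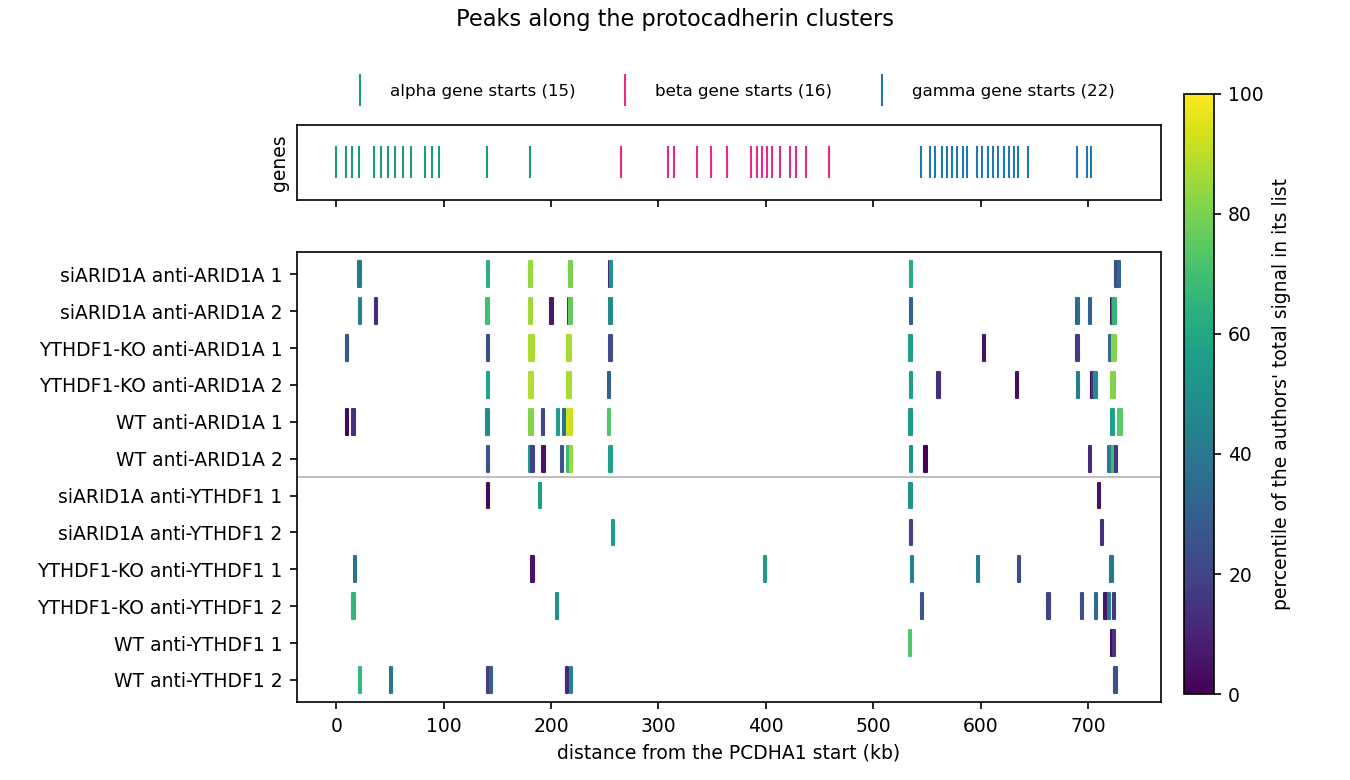
Peaks of the 12 lists along the 3 clusters, by distance in kb from the PCDHA1 start, with gene starts above and each peak coloured by the percentile of its total signal within its list. Peaks narrower than 2.2 kb are drawn at that width so that they can be seen. Among protocadherin gene starts, columns of peaks shared by the 6 anti-ARID1A lists stand at PCDHAC1 and PCDHAC2. Other shared columns stand away from these gene starts, and the beta cluster holds 1 peak in all.

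By list, the share of ends with a peak stayed far under that of all gene ends. The anti-ARID1A lists held a peak at 4 and 6 of the 71 ends in siARID1A, at 6 and 4 in YTHDF1-KO and at 5 and 4 in WT, which is 5.63% to 8.45% of the ends, where the same lists reached 42.4% to 55.1% of all ends. The anti-YTHDF1 lists held 1 and 0 ends in siARID1A, 2 and 2 in YTHDF1-KO and 0 and 2 in WT, at most 2.82% of the ends, where they reached 24.4% to 34.1% of all ends. In no condition did both anti-YTHDF1 replicates hold the same end. Lists differed in size: the anti-ARID1A lists had 71271 and 79193 peaks covering 99.0 and 128 Mb in siARID1A, 99861 and 106882 peaks covering 241 and 234 Mb in YTHDF1-KO, and 92343 and 100729 peaks covering 228 and 266 Mb in WT. The anti-YTHDF1 lists had 59632 and 57354 peaks in siARID1A, 50774 and 46225 in YTHDF1-KO and 57764 and 40562 in WT, so that cells without YTHDF1 still gave about as many peaks with its antibody. The 12 lists measure no RNA or protein and so do not check the knockout or the knockdown.

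**Figure D2:**
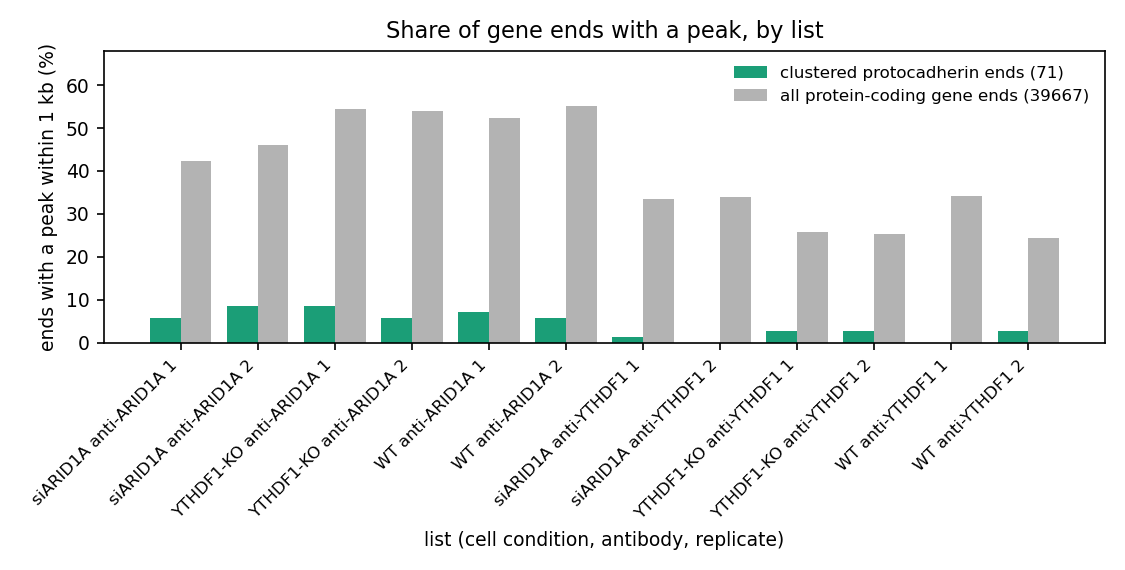
Share of the 71 clustered protocadherin ends and of all 39667 gene ends with a peak within 1 kb, in percent, 1 pair of bars per list. Clustered protocadherin ends lie between 0% and 8.45%, and all ends between 24.4% and 55.1%.

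PCDHAC2, whose mouse counterpart guides the spacing of serotonin axons, had the highest-ranked peak within 1 kb of any of the 71 ends in each of the 6 anti-ARID1A lists. The authors' total signal of its peak (start at chr5:140966476) stood at percentiles 84.5 and 85.4 of the peaks of the anti-ARID1A lists in siARID1A, 87.4 and 88.2 in YTHDF1-KO and 81.3 and 56.5 in WT. All 6 peaks covered the start, with widths of 1860 and 1893 bp in siARID1A, 4147 and 3528 bp in YTHDF1-KO and 3433 and 1051 bp in WT. The second WT list was the lowest of the 6 in percentile and in width. No anti-YTHDF1 list held a peak within 1 kb. The nearest, a peak of 907 bp at percentile 5.25 in the first YTHDF1-KO list, lay farther downstream.

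PCDHAC1 (start at chr5:140926299) had narrower and weaker peaks. In the anti-ARID1A lists its percentiles were 63.7 and 69.8 in siARID1A, 24.7 and 58.6 in YTHDF1-KO and 47.3 and 26.7 in WT, with widths of 1060 and 1510 bp, 1021 and 1205 bp, and 1081 and 698 bp in the same order of conditions. Both siARID1A lists were above the other 4 in percentile. These are ranks within lists of different sizes, of which the siARID1A lists are the smallest. How many of all ends show this order was not counted, so no weight is put on it. With the antibody to YTHDF1 a peak was in 1 siARID1A list, at percentile 2.53 and 414 bp wide, and in 1 WT list, at percentile 17.9 and 1150 bp wide. Over the 8 peaks the middle of the highest signal lay 163 to 601 bp past the start (median 330.5 bp), so the highest signal was on the transcribed side in every list, and 5 of the 8 peaks covered the start. At PCDHAC2 those middles lay at -214 to 968 bp from the start, on either side of it.

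**Figure D3:**
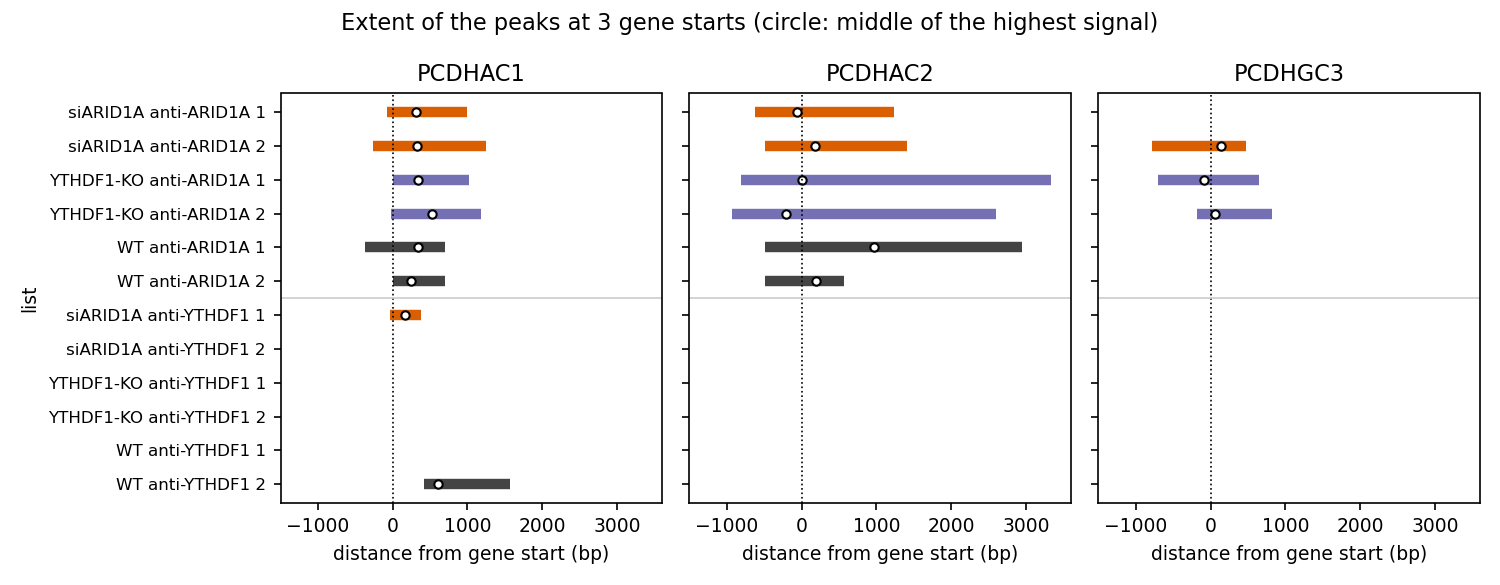
Extent of every peak within 1 kb of the starts of PCDHAC1, PCDHAC2 and PCDHGC3, in bp from the start, with 1 row per list and a circle at the middle of the highest signal. The circles at PCDHAC1 all lie past the start, and PCDHAC2 and PCDHGC3 have bars in anti-ARID1A lists alone.

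The gamma C-type genes were less regular. PCDHGC3, which promotes dendrite branching in mouse cortex (start at chr5:141475966), held an anti-ARID1A peak in the second siARID1A list at percentile 34.7 and in both YTHDF1-KO lists at 16.9 and 42.4, and none in either WT list. All 3 of these peaks covered the start. PCDHGC5 held one in 1 list of each condition, at percentile 32.2 in siARID1A, 1.31 in YTHDF1-KO and 12.2 in WT. The YTHDF1-KO peak covered the start, and the other 2 lay wholly before it, the siARID1A one reaching just 1.55% of the window. PCDHGC4, which mouse interneurons need to survive, held none in any list, though its promoter is no poorer in GC than that of PCDHGC3.

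Among the variable alpha genes, PCDHA4 (start at chr5:140807068) held an anti-ARID1A peak in both siARID1A lists, at percentiles 40.6 and 44.9, and in no other anti-ARID1A list. It also held a peak of 2101 bp at percentile 66.8 in the second anti-YTHDF1 list of WT. PCDHA2 held an anti-ARID1A peak in 1 YTHDF1-KO list at percentile 27.6 and in 1 WT list at 2.21. PCDHA3 held an anti-YTHDF1 peak in 1 YTHDF1-KO list at percentile 65.3 and an anti-ARID1A peak in 1 WT list at 14.0. The other 5 starts, PCDHA5, PCDHGA1, PCDHGA7, PCDHGB4 and PCDHGA11, each held a peak in 1 list, at percentiles from 4.77 to 42.8. The variable exons of a cluster resemble one another in sequence, so how reads were shared among them is uncertain.

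**Figure D4:**
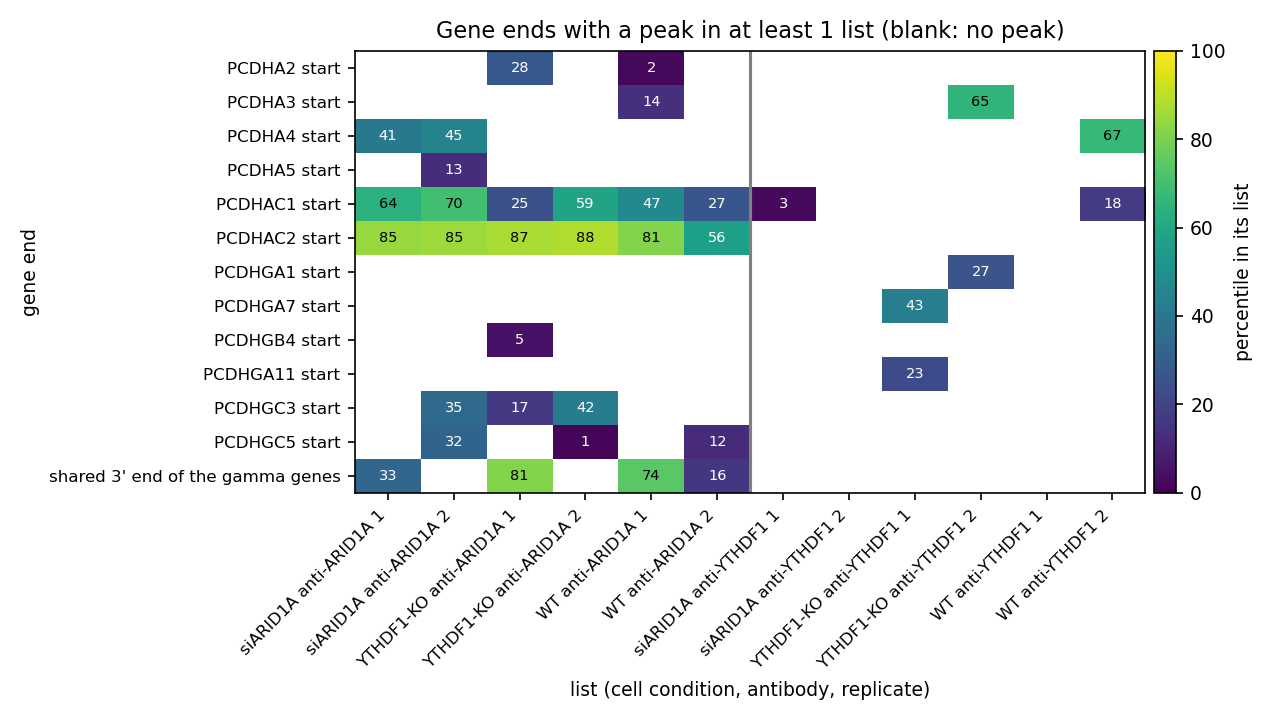
The 13 ends with a peak in at least 1 of the 12 lists, with the percentile of the peak's total signal in its list; blank cells hold no peak, and the higher value is given where an end held 2. PCDHAC1 and PCDHAC2 are filled in all 6 anti-ARID1A lists, and the anti-YTHDF1 side holds 7 filled cells.

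Between and within the clusters, peaks also recurred away from gene starts. Merging the peaks of all lists over the 3 spans and the stretches between them gave 41 regions, of which 27 were in a single list and 6 were in all 6 anti-ARID1A lists. The region chr5:141000698-141005529 lay inside the alpha cluster with its midpoint 9234 bp before the shared 3′ end, and its highest anti-ARID1A percentiles were 79.8 and 76.2 in siARID1A, 86.8 and 86.9 in YTHDF1-KO and 92.5 and 84.5 in WT. It thus ranked about as high as the PCDHAC2 start, and its first siARID1A peak was 1607 bp wide, against 4631 bp in the first WT list. A region between alpha and beta, chr5:141038866-141041435, was in the 6 anti-ARID1A lists and no anti-YTHDF1 list, at percentiles 51.1 and 48.2 in siARID1A, 22.7 and 31.3 in YTHDF1-KO and 72.7 and 56.8 in WT. Another, chr5:141319425-141323081, lay between beta and gamma at TAF7, which encodes a subunit of the TFIID complex, and was in 6 anti-ARID1A and 4 anti-YTHDF1 lists.

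At the 3′ side of the gamma cluster, the region chr5:141504798-141512596 was in all 6 anti-ARID1A lists, at highest percentiles of 23.0 and 66.3 in siARID1A, 81.4 and 81.6 in YTHDF1-KO and 56.7 and 70.0 in WT. It was also in 4 anti-YTHDF1 lists, at 40.5 and 41.7 in YTHDF1-KO and 15.9 and 25.9 in WT, and in neither siARID1A list. Peaks came within 1 kb of the shared 3′ end itself in 4 anti-ARID1A lists. In the first siARID1A and the first WT list a peak that did so lay past the end, on the side of DIAPH1, whose annotated end is 2046 bp away. In the beta cluster the single peak of 677 bp, at percentile 54.8, was in the first anti-YTHDF1 list of YTHDF1-KO and within 1 kb of no gene end.

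Set against the antibody to YTHDF1, the antibody to ARID1A covered more of the window at 3 ends. The percent of the window of 2001 bp covered by peaks was compared with limma over all ends with a peak in at least 2 of the 12 lists, with Benjamini-Hochberg adjustment and a threshold of 0.05. At PCDHAC2 coverage was 81.5% and 74.2% in siARID1A, 90.4% and 96.4% in YTHDF1-KO and 74.3% and 52.5% in WT with the antibody to ARID1A, and 0% in all 6 anti-YTHDF1 lists. The difference was 78.2 percentage points (SE 12.2, limma adjusted p = 0.000327). At PCDHAC1 the means were 50.9% with the antibody to ARID1A and 8.29% with that to YTHDF1, a difference of 42.7 points (SE 12.4, limma adjusted p = 0.00909). The lowest anti-ARID1A value at PCDHAC1 was 34.9% and the highest anti-YTHDF1 value 29.0%. What share of all ends separates the lists of the antibodies in this way was not counted, so no weight is put on it. At PCDHGC3 the means were 30.1% and 0%, a difference of 30.1 points (SE 12.4, limma adjusted p = 0.0460), with 3 of the 6 anti-ARID1A lists at 0%. PCDHAC2 and PCDHGC3 had enough peaks to be tested through the anti-ARID1A lists alone, where they are high. With no such requirement PCDHAC2 kept its call (limma adjusted p = 8.81e-05) and PCDHGC3 lost it (0.0782).

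These were 3 of the 8 ends that could be tested, where the antibody to ARID1A was higher at 52.4% of the ends tested in the genome and the antibody to YTHDF1 at 0.0747%. The other 63 ends had too few peaks to be tested. The median difference was 14.0 points over the 8 ends and 33.7 points over all ends tested, and the 8 are ends that had peaks. The PCDHGC3 call did not hold without the second siARID1A anti-ARID1A list (limma adjusted p = 0.0963), without the first (0.0840) or second (0.0622) YTHDF1-KO anti-ARID1A list, or without the first (0.0712) or second (0.0681) siARID1A, the first (0.112) or second (0.112) YTHDF1-KO or the second WT (0.0516) anti-YTHDF1 list. With a window of 3 kb PCDHAC1 (difference 13.2 points, limma adjusted p = 0.0591) and PCDHGC3 (0.0608) also lost their calls, and the shared gamma end was called (0.000573). With all lists cut to the same number of peaks PCDHAC2 kept its call (limma adjusted p = 0.00327) and PCDHAC1 did not (0.311), and with all cut to the same covered length PCDHAC2 lost it too (0.297). At that cut the PCDHAC1 start was held by 0 anti-ARID1A lists and 1 anti-YTHDF1 list, the second of WT. With presence alone, PCDHAC2 was held by 6 of 6 anti-ARID1A and 0 of 6 anti-YTHDF1 lists (Fisher's exact test, two-sided, p = 0.00216, adjusted p = 0.153). That is the smallest p which 6 lists against 6 can give, and too few of all ends reached it for any to be called, so 0% of all ends and none of the 71 were. An unadjusted p under 0.05 was found at 2371 ends, of which PCDHAC2 was the only one among the 71.

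In siARID1A against WT, the antibody to ARID1A had peaks at PCDHAC1 and PCDHAC2 in all 4 lists. Of the 3 ends held by both WT lists, PCDHAC1 and PCDHAC2 were held by both siARID1A lists and the shared gamma end by 1 of them. Of the 19246 such ends in the genome, 74.4% were held by both siARID1A lists and 9.01% by neither. At the shared gamma end the WT lists had separate peaks that did not overlap. The peak of the first WT list, past the end, covered only 1.85% of the window, and that of the second, before the end, 31.1%. One end was held by both siARID1A lists and neither WT list, the PCDHA4 start, a pattern shown by 0.262% of all ends. None of the 71 showed the opposite pattern, held by both WT lists and neither siARID1A list, which 4.37% of all ends did. Only the 3 ends in both WT lists could show it, so that count says little. With 2 lists against 2 these patterns have no test, since the smallest p of an exact two-sided permutation test is 0.333. In limma the PCDHA4 window averaged 45.6% covered in siARID1A, against 0% in WT (difference 45.6 points, SE 9.46, adjusted p = 0.101). It had enough peaks to be tested only through the siARID1A lists, and with no such requirement the SE was 24.6 (limma adjusted p = 0.521). PCDHAC2 averaged 77.9% in siARID1A and 63.4% in WT (SE of the difference 9.96, limma adjusted p = 0.491). PCDHAC1 averaged 58.0% in siARID1A and 44.5% in WT (SE 11.8, limma adjusted p = 0.528).

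None of the 7 ends tested in siARID1A against WT passed in limma, where 0% of all 23042 ends passed in either direction. At an unadjusted p under 0.05 there were 4803 ends, 1 of them among the 7. The median difference of siARID1A minus WT was 13.6 points over the 7 ends and -19.4 points over all ends tested. The 7 include PCDHA4, which could be tested only through the siARID1A lists, where it is high. They also include PCDHGC3, which had no peak in WT, so no weight is put on the median of the 7. The siARID1A lists covered 99.0 and 128 Mb in all, against 228 and 266 Mb in WT. With the 6 lists cut to the same covered length, the PCDHA4 (limma adjusted p = 0.0201), PCDHAC1 (0.00337) and PCDHAC2 (0.00295) starts were higher in siARID1A and 3090 of all ends passed. That cut shortens the WT and YTHDF1-KO lists most. The PCDHAC2 peak was kept in both siARID1A and both YTHDF1-KO lists and in neither WT list, and the cause was not tested.

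In YTHDF1-KO against WT, the antibody to ARID1A held the PCDHGC3 start in both YTHDF1-KO lists and neither WT list, a pattern shown by 1.17% of all ends. None of the 71 was held by both WT lists and neither YTHDF1-KO list, as 1.1% of all ends were. Only 3 of the 71 were in both WT lists and so could show this. Of the 19246 such ends in the genome 2.27% did, so a count of 0 among 3 says little. The PCDHGC3 window averaged 58.9% covered in YTHDF1-KO, against 0% in WT (SE of the difference 24.2, limma adjusted p = 0.839). Without the YTHDF1-KO lists, where it is high, PCDHGC3 would have had too few peaks to be tested, since only 1 siARID1A list held it. PCDHAC2 averaged 93.4% in YTHDF1-KO and 63.4% in WT, a difference of 30.0 points (SE 9.96, limma adjusted p = 0.735). PCDHAC1 averaged 50.4% in YTHDF1-KO and 44.5% in WT (limma adjusted p = 1). None of the 7 ends tested passed, and 0% of all ends did in either direction. An unadjusted p under 0.05 was found at 1473 ends, 1 of them among the 7. Since both comparisons use the same 2 WT lists, they are not independent of each other.

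With the antibody to YTHDF1 no protocadherin end was held by both replicates of any condition, so no end could be in both lists of a condition while absent from another, and the count of 0 among the 71 carries no information. Over all ends, 2.48% were held by both siARID1A lists and neither WT list and 1.02% the other way round, and 1.12% by both YTHDF1-KO lists and neither WT list and 2.66% the other way round. PCDHAC1 was the 1 end with enough peaks to test. Its window averaged 10.3% in siARID1A and 14.5% in WT (limma adjusted p = 0.994), and 0% in YTHDF1-KO and 14.5% in WT (limma adjusted p = 0.887). In limma 0% of all 16070 ends passed in either direction of both comparisons, and an unadjusted p under 0.05 was found at 778 ends in siARID1A and 890 in YTHDF1-KO, none of them among the 71.

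PCDHAC1 and PCDHAC2, the starts in the most anti-ARID1A lists, had the promoters richest in GC among the 46. Among all promoters in the table their GC content stood only at percentiles 69.5 and 61.2, and that of PCDHGC3 at 50.4. Of the 4 starts at or above 55% GC, PCDHAC1 and PCDHAC2 were in all 6 anti-ARID1A lists, PCDHGC3 in 3 and PCDHGC4 in none. Among all 10002 protein-coding starts in that range, 65.6% were in all 6 and 7.7% in none. Of the 7 starts from 45% to under 55% GC, 6 (85.7%) were in no anti-ARID1A list, against 31.6% of the 2168 starts in that range. Of the 35 starts under 45% GC, 32 (91.4%) were in no anti-ARID1A list, against 72% of the 1533 starts in that range. By the ratio of observed to expected CpG the starts did not separate in this way: 20 of the 23 with a ratio of at least 0.6 (87%) were in no anti-ARID1A list, against 6.99% of all such starts. What part base composition has in the presence of peaks was not tested.

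**Figure D5:**
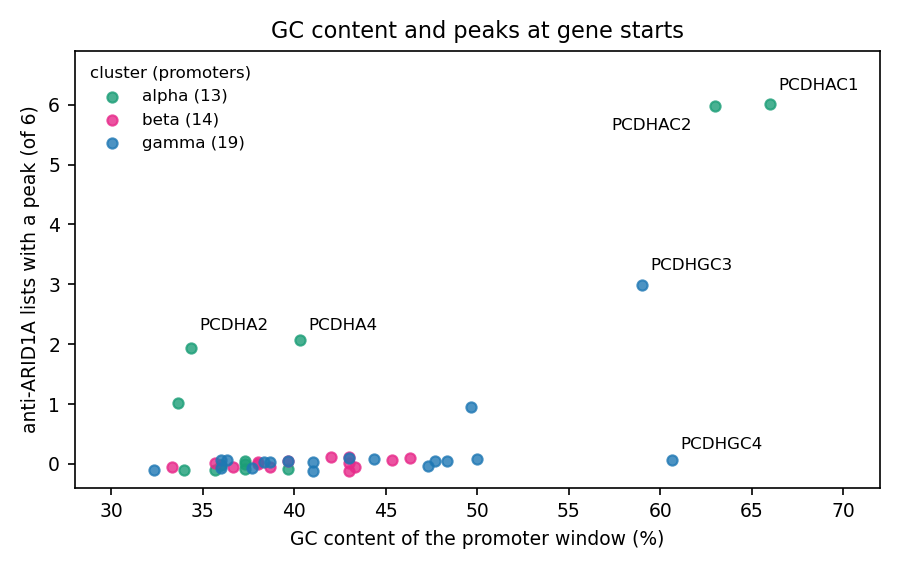
GC content of the promoter window in percent against the number of anti-ARID1A lists with a peak at the start, for 46 genes, with points shifted slightly up or down where they would overlap. PCDHAC1 and PCDHAC2 stand at the upper right, PCDHGC4 is at 0 lists with 60.7% GC, and no beta gene leaves 0.

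Genes of the same and related families, and those known to act on the clusters, were counted by whether a peak lay at either end. A peak in all 6 anti-ARID1A lists was at 4 of the 53 clustered protocadherin genes (7.55%), PCDHAC1, PCDHAC2, PCDHGC3 and PCDHGC5, at 2 of 12 non-clustered protocadherins, PCDH1 and PCDH9, at 5 of 6 classical cadherins and at 56.3% of all genes. PCDHGC3 and PCDHGC5 reached 6 lists through the shared gamma 3′ end, their own starts being held in 3 lists each. Of the 12 non-clustered protocadherins 7 held no peak in any list, as did 14.3% of all genes. Of the 16 neighbouring genes 14 were in all 6 anti-ARID1A lists, and SLC25A2, a mitochondrial transporter gene between beta and gamma, was in none of the 12. Of 11 genes for CTCF and cohesin 10 were, among them CTCF and RAD21, and of 12 genes for factors that silence chromatin 11 were, among them DNMT1 and SMCHD1. As markers, 6 of 7 lung and epithelial genes, 5 of 7 neuron genes and 3 of 5 blood cell genes were in all 6, so markers of all these cell types had peaks, and PTPRC, a defining blood gene, had none in any list.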

How the data were processed

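CUT&Tag peak lists of 12 samples, 1 list per sample, were used as deposited. Per the submitters' processing notes, the build was GRCh38, and the tools were SEACR 1.3 (a peak caller), Bowtie2 2.4.2 (an aligner), fastp 0.23.2, deepTools 3.5.2, SAMtools 1.9 and bedtools 2.30.0. Settings, the use of IgG in peak calling and the handling of reads with several matches were not given in the sources used here. As deposited, a list gives each peak's position, total signal and highest signal, a coverage whose scale the authors set and which is not stated. Signal was therefore used as a percentile of total signal within its own list. Sequencing depth is unknown.

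Groups came from the sample titles. Presence of peaks and covered length were computed in Python 3.11.15 with scipy 1.17.1 and tested with limma 3.58.1 (trend and robust) in R 4.3.3, and checked on simulated data. The antibody fit had condition as a covariate, and each condition was compared with WT in a fit of the 6 lists of 1 antibody, which share the estimate of spread. Positions are 1-based. The members, lists and tests were chosen with earlier results of these data known. All ends with a peak are named; C-type genes, the shared ends, ends called or with a presence pattern and the leading starts of each cluster are given with values.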

Additional observations from a re-analysis of the deposited data

How the results depend on the processing

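Alternatives were a window of 3 kb to either side, lists cut to the same number of peaks or the same covered length, genes in place of ends, an overlap of 100 bp, no filter, exact tests stratified by condition or replicate number, a replicate block and each replicate left out. The number of the 71 ends called between antibodies was 3, with 1 under an equal number of peaks and 0 under an equal covered length, where 1 end could be tested, 4 for genes in place of ends, 2 with 3 kb, no filter or the replicate block, and 2 to 3 with a replicate left out; of all ends 8619 passed under an equal number of peaks and 229 under an equal covered length, against 12661. Of all ends, 0 passed in siARID1A against WT with the antibody to ARID1A, but 1635 with 3 kb, 3090 with an equal covered length, 2 with no filter, and 2004 and 3649 without the first or second siARID1A list. In YTHDF1-KO 0 passed, but 320 with an equal covered length, 4 with no filter and 11 without either siARID1A list. With an equal covered length 3 ends passed in siARID1A and 1, PCDHAC2, in YTHDF1-KO against WT with the antibody to ARID1A, where 0 did otherwise. For the presence patterns with that antibody, siARID1A alone had 1 end, 3 under an equal covered length and 1 to 3 with a replicate left out (3 without the first siARID1A list), and its opposite 0 to 2 (1 without that list, 2 without the second WT list). YTHDF1-KO alone had 1, with 0 under an equal number of peaks or genes in place of ends and 1 to 2 with a replicate left out (2 without the second YTHDF1-KO list), and its opposite 0 to 1 (1 without the first YTHDF1-KO or the second WT list). With the antibody to YTHDF1 the window of 3 kb gave 1 end in WT but not siARID1A and 1 in YTHDF1-KO but not WT, and leaving out a replicate gave 0 to 1 (1 without the first WT list) and 0 to 2 (2 without either YTHDF1-KO list), and 0 to 2 for WT but not YTHDF1-KO (2 without the first WT list).

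Some directions turned, in tests that had not passed. Adjusted p-values there were 1 (equal number of peaks, equal covered length), 0.908 (3 kb) and 0.152 to 0.956 (a replicate left out, 0.928 where it turned) for PCDHA4 and 1 (equal covered length) for PCDHAC1 in presence between antibodies, the values at equal cuts being for presence and the others for covered length. In siARID1A against WT with the antibody to ARID1A they were 0.361 (3 kb) for PCDHAC2, 0.584 to 1 (a replicate left out) for PCDHGC5, and 0.543 (3 kb), 0.663 (equal number) and 0.686 to 0.971 (a replicate left out) for the shared gamma end, and with the antibody to YTHDF1 0.751 to 0.993 (a replicate left out) for PCDHAC1. In YTHDF1-KO against WT they were 1 for PCDHAC1, 0.625 to 1 (a replicate left out) for PCDHGC5, and 0.674 (3 kb) and 1 for the shared gamma end. The cause was not tested.

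Same-numbered replicates did not deviate together in covered length, with correlations from -0.0233 to 0.0093 over 15 pairs of groups, so the main tests did not pair them. Such a check on called peaks cannot tell whether same-numbered replicates shared a culture or batch. The replicate block ended the PCDHGC3 call between antibodies (limma adjusted p = 0.0502) and left 0 called in all 4 comparisons of conditions. No difference of condition effects between antibodies passed at the 8 ends tested in an interaction fit added after seeing the data (lowest limma adjusted p 0.225 in siARID1A and 0.706 in YTHDF1-KO). Depth being unknown, an absent peak is one not called, and 2 lists per group leave small differences unseen.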
